A study of Homo sapiens with 2 samples.

Results

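The genes described here encode the DNA-synthesizing core of the replication fork. They are the 10 listed genes of DNA polymerase α and its primase (POLA1, POLA2, PRIM1, PRIM2), DNA polymerase δ (POLD1, POLD2, POLD3), DNA polymerase ε (POLE, POLE2) and the sliding clamp PCNA, out of 20033 protein-coding RefSeq genes. They were taken by name, and every ETV4 peak within 10 kb of a gene's span was assigned to it, which gave 31 of the 54389 peaks. The peaks come from 1 anti-Flag chromatin immunoprecipitate, called with 1 input library, of A549, an established line of human lung adenocarcinoma cells. In them ETV4 had been knocked down by shRNA (A549-shETV4) and a Flag-tagged ETV4 was put back by transfection, so the antibody sees only the transfected protein at its transfected level. There was no replicate and no cell population without Flag-ETV4, so no SD and no test between conditions can be given, and intervals cover counting error only. The Flag antibody is from Sigma in the labels and from CST in the methods. A peak list holds no expression values, so the identity of the cells could not be checked against markers.

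At each fork, polymerase α-primase lays down a short RNA-DNA primer, polymerase ε extends the leading strand and polymerase δ the fragments of the lagging strand. PCNA encircles the DNA and tethers polymerases and many repair factors to it. ETV4 belongs to the PEA3 group of ETS transcription factors, whose DNA-binding domain recognises a GGAA core, most readily with CC before it. Besides roles of ETV4 at origins and forks, the study asked whether it controls replication genes through their promoters. In microarray data of other lung cancer lines, it reported DNA replication among the top pathways lowered by ETV4 knockdown. It then tested the promoters of helicase, licensing and firing-factor genes. The genes of the polymerases are described here.

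A peak lay within 1 kb of an outer end for 9 of the 10 genes (90.0%, Wilson 95% confidence interval 59.6% to 98.2%), and the exception was POLD1. The same was true of 62.1% of all protein-coding genes, a share inside that interval. Where RefSeq promoter windows give the transcription start, which they do for 9 of the genes and not for POLD3, 8 had a peak within 1 kb of a start, against 64.4% of all protein-coding genes that have a window. A peak within 10 kb of the gene span was found for 10 of 10 genes, against 81.6% of all. The peaks at the genes' own starts or outer ends ran from weak to middling. By fold, the strongest such peak of each gene that had one stood between the 8.17th percentile, at POLD2, and the 57.1th, at POLA1, of peaks at listed protein-coding starts. A peak with a fold enrichment over the input of more than 10 lay at an outer end, to within 1 kb, for 4 of the 10 genes (background 45.2%) and at a listed start for 5 of the 9 (background 47%). Among the 8 genes with a peak at a listed start, the median of the highest fold was 13.7, and over all protein-coding genes with such a peak it was 17.8.

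The 31 peaks fell into 4 places. At the start or outer end of the gene itself lay 12 peaks, with a fold from 4.80 to 18.8. Another 7 lay at an end of a neighbouring protein-coding gene and had a fold from 6.70 to 46.9. Inside the genes and away from any end were 6 peaks, from 3.94 to 62.6, and elsewhere in the flanks were 6 peaks, from 4.37 to 11.2. As a result the strongest peak assigned to a gene was at its own start for only 2 of the 10, POLA1 and PRIM2. For 5 genes (POLA2, PRIM1, POLD1, POLE2 and PCNA) it was at the end of a neighbour, for POLE it was inside the gene, and for POLD2 and POLD3 it was in the flank.

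**Figure D1:**
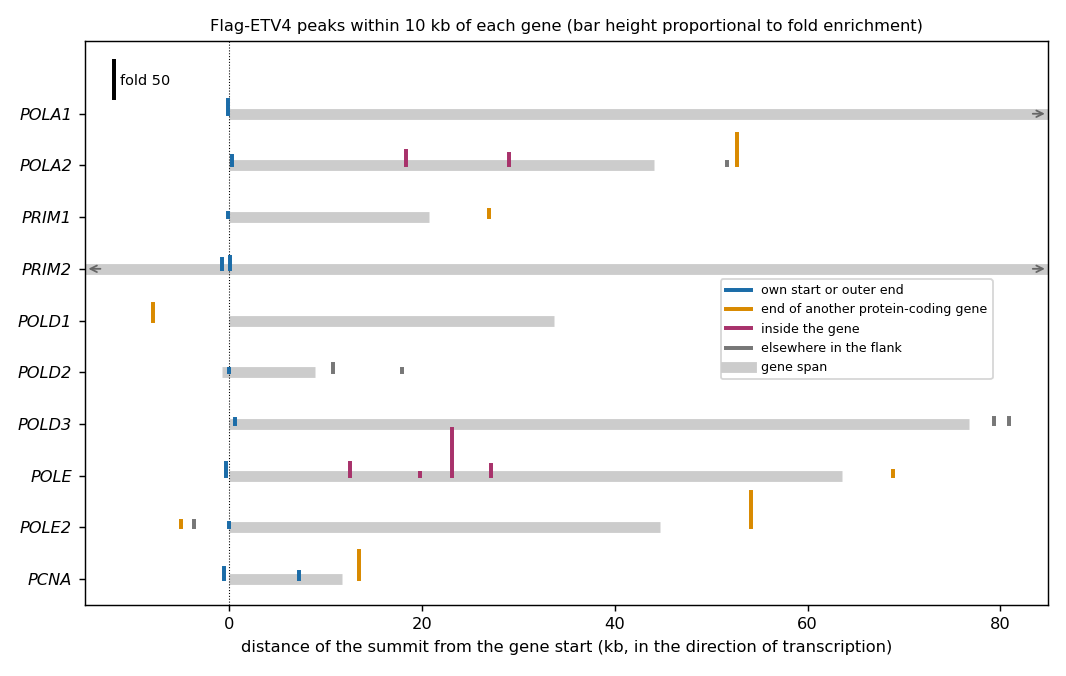
Position of the peak summits around each gene, as the distance in kb from the gene start in the direction of transcription. Vertical bars are peaks, with a height proportional to fold enrichment (black scale bar, fold 50), and grey bars are gene spans, cut by arrows where they run past the panel. For POLD3, whose start is not given in the table, distances run from the end with the lower coordinate, for PRIM2 from the listed start with a peak, and a further PRIM2 peak lies beyond the left edge. Blue bars stand at the dotted line for every gene except POLD1, and the tallest bar, fold 62.6, is inside POLE.

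Among the 9 genes with a promoter window, those with a start peak of fold over 10 shared a sequence that was not found in the windows of the others, and the stretches that show it are printed here. POLD3, without a window, was not searched. Windows of 300 bases, 250 before and 50 after each listed start, were searched on both strands for GGAA, for CCGGAA, which reads TTCCGG on the other strand, and for CCGGAAGT, where the shorter forms lie within the longer. Below, RefSeq sequence on GRCh38.p14 is given 5′ to 3′ in the direction of transcription, upstream of the start, with each CCGGAA or TTCCGG in capitals. The first 5 are the stretches with a match from the genes whose start peak had a fold over 10, with up to 15 bases on each side. The last 2, shown for contrast, are the 250 bases before the start of POLE2, where the peak was weak, and of POLD1, where there was none, and neither holds a match.
POLA1, chrX:24693832-24693873, plus strand: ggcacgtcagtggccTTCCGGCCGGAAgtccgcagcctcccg
POLA2, chr11:65261843-65261961, plus strand: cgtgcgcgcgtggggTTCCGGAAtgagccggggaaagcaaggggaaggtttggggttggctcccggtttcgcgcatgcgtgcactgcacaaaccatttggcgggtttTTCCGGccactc
PRIM2, chr6:57317605-57317629, plus strand: gctagtcacttcctcTTCCGGtttc
POLE, chr12:132687369-132687585, minus strand: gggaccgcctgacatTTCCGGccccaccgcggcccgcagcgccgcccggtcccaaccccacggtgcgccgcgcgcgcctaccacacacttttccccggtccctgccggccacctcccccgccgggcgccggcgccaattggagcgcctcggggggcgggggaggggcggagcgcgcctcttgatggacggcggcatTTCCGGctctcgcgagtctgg
PCNA, chr20:5126766-5126801, minus strand: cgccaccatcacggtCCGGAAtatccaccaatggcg
POLE2, chr14:49688215-49688464, minus strand: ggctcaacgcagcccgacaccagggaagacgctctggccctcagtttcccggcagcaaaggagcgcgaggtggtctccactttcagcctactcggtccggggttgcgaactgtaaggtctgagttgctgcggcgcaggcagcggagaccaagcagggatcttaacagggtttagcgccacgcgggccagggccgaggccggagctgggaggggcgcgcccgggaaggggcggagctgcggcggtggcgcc
POLD1, chr19:50384073-50384322, plus strand: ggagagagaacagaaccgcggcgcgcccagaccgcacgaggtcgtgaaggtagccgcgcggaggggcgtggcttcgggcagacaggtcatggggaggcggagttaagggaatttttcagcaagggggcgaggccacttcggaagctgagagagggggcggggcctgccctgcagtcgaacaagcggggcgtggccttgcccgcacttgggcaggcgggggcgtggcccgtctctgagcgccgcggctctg

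CCGGAA was found at the starts of POLA1, POLA2, PRIM2, POLE and PCNA, the 5 genes whose highest fold at a listed start was 18.8, 12.1, 15.6, 17.1 and 15.3. It was absent from the windows of PRIM1, POLD2, POLE2 and POLD1, of which the first 3 had a fold of 5.06, 4.80 and 5.13 and the last had no peak. At PCNA only the window of the outer start held it. The window of the inner PCNA start, at 5119958, had a peak with a fold of 9.59 and no match. Taken by window, the division is thus narrower, with 9.59 without a match beside 12.1 with one. All matches lay inside the start peak of their gene. This followed from the search, since these peaks cover the searched windows whole or, at PRIM2, nearly whole. In POLA1 a TTCCGG and a CCGGAA stand back to back, 71 and 65 bases before the start, and the latter is the only match in these genes to CCGGAAGT. The POLA1 summit was 40 bp from the nearer of them, and the PRIM2 summit was 38 bp from its match, 10 bases before the start. In POLA2 an overlapping TTCCGG and CCGGAA lie 104 and 102 bases before the start and a further TTCCGG 12 bases before it. The POLA2 summit was 299 bp from the nearest of these, the POLE summit 162 bp from its nearest match and the PCNA summit 347 bp. At POLA2, POLE and PCNA the summit lay outside the searched window, whereas at PRIM1, POLD2 and POLE2, without a match, it lay inside. The division between the genes was noticed after the values had been seen and is given without a test. The bare core GGAA was in the windows of 9 of 9 genes and in 95.1% of all protein-coding windows, so it does not separate them. A GGAA also lay nearer to the summit than CCGGAA did, at 3 bp for POLA1 and 8 bp for PRIM2. Where CCGGAA was absent, the nearest GGAA was 20 bp from the summit at PRIM1, 19 bp at POLE2 and 52 bp at POLD2. CCGGAA itself was found in 5 of the 9 genes. Counted by window, it was in 5 of their 12 windows and in 21.2% of all windows.

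Over the 22198 windows of all protein-coding genes, CCGGAA was found in 29.1% (Wilson 95% confidence interval 28.3% to 29.8%) of those with a peak within 1 kb of the start and in 9.11% (8.53% to 9.73%) of those without. The division among the polymerase genes is between stronger and weaker peaks, for which the shares were closer, 30.9% (29.98% to 31.8%) in windows with a peak of fold over 10 and 24.0% (22.6% to 25.4%) in windows with weaker peaks alone. For CCGGAAGT the shares with and without a peak were 8.0% (7.55% to 8.47%) and 1.25% (1.04% to 1.51%). Read the other way, 83.0% of the windows with CCGGAA and 54.5% of those without it had a peak, and the median of the highest fold where there was one was 19.9 and 17.1. Base composition moved with the presence of a peak, with a median GC content of 66.7% in windows with a peak and 53.3% in those without, and a median of 27 and 6 CG dinucleotides, one of which CCGGAA contains. Within bands of GC content, the difference in the share with CCGGAA ranged from 22.3 percentage points at 50 to 60% GC to 11.1 at 70 to 75% GC, and was 11.2 below 50% and 7.37 from 75% up. Within bands of the number of CG it was smaller than the 20.0 points over all windows, from 5.33 in windows with under 10 CG to 16.2 in those with 20 to 29. Among the genes described here GC content was 69.3% for POLA1, 66.0% for POLA2, 53.0% for the PRIM2 start with a peak, 73.7% for POLE and 68.0% for the outer PCNA start. It was 67.3% for PRIM1, 74.7% for POLD2, 69.0% for POLE2 and 71.0% for the outer POLD1 start. The number of CG was 33 to 39 at POLA1, POLA2, POLE and the outer PCNA start, and 10 at PRIM2. It was 32 to 43 at PRIM1, POLD2, POLE2 and the outer start of POLD1. Whether base composition has a part in the division among these few genes was not tested.

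**Figure D2:**
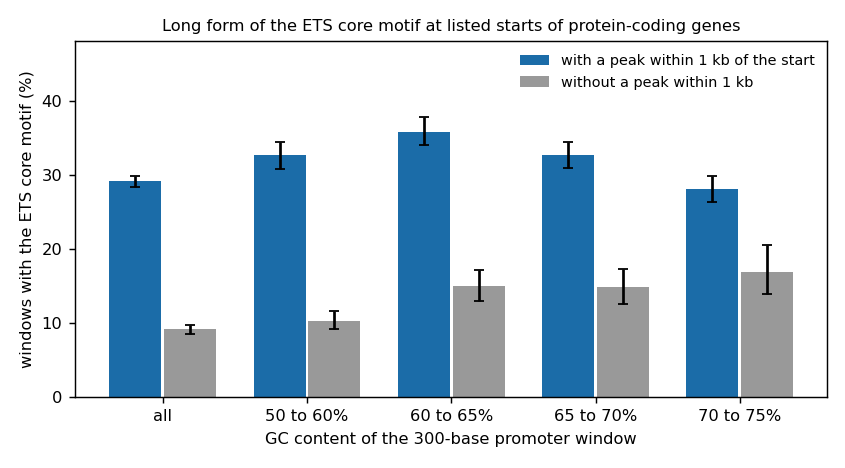
Share of 300-base promoter windows of protein-coding genes that hold CCGGAA on either strand, in percent, for all windows and within bands of GC content. Blue bars are windows with a peak within 1 kb of the start, grey bars those without, and error bars are Wilson 95% confidence intervals. The blue bar is the higher in each band shown, by 11.1 to 22.3 percentage points, while windows under 50% and from 75% GC are in the leftmost bars only.

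POLA1 encodes the catalytic subunit of polymerase α. It had a single peak, at its start on chromosome X, from 24693530 to 24694213, although the gene is 303 kb long. The fold of 18.8 (14.3 to 24.4 from the counting error of the pileup) and the −log10 q of 57.2 were the highest fold and the next-highest −log10 q among the start peaks of these genes. The summit, 111 bp upstream of the start, held 56 piled-up fragments (42.3 to 72.7, the exact Poisson 95% confidence interval), and the control level, which is the number expected there from the input, was 2.03. Ranked by fold, it stood at the 57.1th percentile of the 10349 peaks within 1 kb of a listed protein-coding start, and at the 67.2th percentile of the 338 of them on chromosome X. Peaks were sparser on X, 9.56 per Mb, than on the autosomes, 18.4 per Mb. Of the 773 protein-coding genes of at least 300 kb, 9.96% likewise had no more than 1 peak within 10 kb of the span, and their median was 6 peaks.

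POLA2 encodes the B subunit of polymerase α, which has no catalytic activity. Its start peak, on chromosome 11 from 65261664 to 65262701, had a fold of 12.1 and a −log10 q of 35.0. The pileup was 44 fragments (32.0 to 59.1) over a control level of 2.73, and the summit was 292 bp inside the gene. Further peaks lay 18.3 kb inside the gene, with a fold of 19.0 and a pileup of 87 fragments (69.7 to 107), and 29.0 kb inside, with a fold of 15.1 and a pileup of 65 fragments (50.2 to 82.9). The pileup interval of the former did not overlap that of the start peak, but its control level was higher, 3.64, and the fold intervals of 15.2 to 23.3 and 8.84 to 16.1 did overlap. Beyond the 3′ end, a peak with a fold of 42.6 spanned the start of CDC42EP2, an effector of the GTPase CDC42, with the summit 31 bp from the nearer start of the uncharacterised LOC105369344, and a peak with a fold of 4.74 lay next to it.

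PRIM1 encodes the catalytic subunit of primase. The peak at its start, on chromosome 12 from 56752189 to 56752629, was the faintest start peak of these genes by pileup. It had 16 fragments (9.15 to 26.0) over a control level of 2.36, a fold of 5.06 and a −log10 q of 7.0, with the summit 148 bp upstream of the start. By fold it was at the 9.90th percentile of start peaks. The only other peak assigned to PRIM1 lay downstream of the gene with its summit 60 bp upstream of the start of NACA, which encodes a chaperone of nascent polypeptides, and had a fold of 9.60.

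PRIM2 encodes the regulatory subunit of primase. Its RefSeq span of 425 kb on chromosome 6 begins at 57221540, long before the first listed start, and its peaks depend on which start is meant. The peak from 57317384 to 57318021 had a fold of 15.6, a −log10 q of 61.4 and a pileup of 70 fragments (54.6 to 88.4) over a control level of 3.57, with a summit 33 bp past the listed start at 57317630. A neighbouring peak from 57316620 to 57317091 had its summit 751 bp upstream of that start, with a fold of 13.6 and a pileup of 66 fragments (51.0 to 84.0). Both lie inside PRIM2, over 50 kb from the nearest outer end of any gene, that of LINC03001. No peak lay within 1 kb of the other listed start, at 57314805, and the 300-base window there had a GC content of 38.3% and no CCGGAA. The peak at the outer end of the span, from 57221696 to 57222140 with a fold of 7.25, had its summit 379 bp upstream of the nearer listed start of RAB23, a small GTPase gene transcribed the opposite way, so it is not a peak at either listed start of PRIM2. The control levels of the 3 peaks were between the 94.5th and the 96.5th percentile of all peaks. RefSeq lists a related pseudogene of 264 kb, PRIM2BP, on the same chromosome; there was no peak within 10 kb of it, and whether reads from it were placed on PRIM2 was not tested.

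None of the polymerase δ genes described here, POLD1, POLD2 and POLD3, had a peak with a fold over 10 at a listed start or outer end. POLD1, which encodes the catalytic subunit, had no peak in its 33.7 kb or within 3 kb of its ends, and none within 1 kb of either of its 2 listed starts. Since the lowest pileup in the list was 6 fragments, fewer than that could not have been called. The peak that the 10 kb flank assigns to POLD1, on chromosome 19 from 50376222 to 50376757, had a fold of 22.6 and a pileup of 75 fragments (59.0 to 94.0), but its summit was 26 bp upstream of the start of NR1H2, a nuclear receptor for oxysterols. That start is 7866 bp upstream of the start of POLD1.

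POLD2, the second subunit of polymerase δ, had a start peak of only 290 bp, on chromosome 7 from 44123318 to 44123607. Its fold of 4.80 was the lowest of the start peaks, with a −log10 q of 8.47 and a pileup of 22 fragments (13.8 to 33.3) over a control level of 3.79, a control level at the 96.4th percentile. The summit was 12 bp past the listed start, which is itself inside the outer end of the gene. Downstream of POLD2 a peak with a fold of 11.2 and a pileup of 34 fragments (23.6 to 47.5) lay 1890 bp beyond its 3′ end, inside AEBP1, and another inside AEBP1 had a fold of 4.37.

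POLD3, the third subunit, had a peak on chromosome 11 from 74592417 to 74593335 that covered the end of the gene with the lower coordinate. Its fold was 6.49, its −log10 q 12.3 and its pileup 23 fragments (14.6 to 34.5) over a control level of 2.70, with the summit 566 bp inside the gene. The promoter table gives no start for POLD3, so the direction was not taken from it. Beyond the other end, 2546 and 4156 bp from it, lay peaks with a fold of 7.33 and 8.03 and pileups of 18 (10.7 to 28.5) and 26 fragments (17.0 to 38.1). The 3 pileup intervals overlapped, and a difference in level between these peaks was not tested.

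POLE, the catalytic subunit of polymerase ε, had 6 peaks, the most of the 10 genes, of which 4 had their summit inside the gene and away from its ends. The strongest, on chromosome 12 from 132663949 to 132664612, had a fold of 62.6 (52.8 to 73.7), a −log10 q of 229 and a pileup of 142 fragments (120 to 167) over the lowest control level of the list, 1.28. It lay 23.1 kb inside the gene and was the strongest of the 31 peaks on each of these measures. By fold it was at the 96.6th percentile of the 17901 peaks that lie inside protein-coding genes and over 3 kb from every listed protein-coding start, whose median fold was 8.32. The other 3 inner peaks, 12.6, 19.8 and 27.2 kb from the start, had a fold of 16.6, 3.94 and 14.9. The weakest of them rested on 8 fragments (3.45 to 15.8). Of the 4655 protein-coding genes of 30 to 80 kb, 7.80% had at least 6 peaks within 10 kb of the span, with a median of 2.

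The start of POLE is 245 bp from that of PXMP2, a peroxisomal membrane protein gene on the opposite strand, and a single peak of 1369 bp, from 132686762 to 132688130, spanned both. Its fold was 17.1, its −log10 q 39.99 and its pileup 38 fragments (26.9 to 52.2) over a control level of 1.28. The summit was 390 bp upstream of POLE and 145 bp past the start of PXMP2, so it was nearer to the neighbour, while the pair of TTCCGG matches printed for POLE lies between the starts. The pileup interval of this peak did not overlap that of the strong inner peak. Beyond the far end of POLE a peak with a fold of 6.70 lay 324 bp from an end of P2RX2, an ATP-gated channel gene.

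POLE2 encodes the second subunit of polymerase ε. Its start peak, on chromosome 14 from 49687610 to 49688606, had a summit 7 bp upstream of the start, the closest of the 10 genes, but was weak, with a fold of 5.13, a −log10 q of 7.80 and a pileup of 18 fragments (10.7 to 28.5) over a control level of 2.70. The strongest peak assigned to POLE2, 2704 bp wide with a fold of 46.9 and a pileup of 106 fragments (86.8 to 128), had its summit 52 bp upstream of the start of DNAAF2, a gene for assembly of ciliary dynein. Upstream of POLE2, a peak with a fold of 8.60 had its summit 70 bp past the start of KLHDC1 and a peak with a fold of 8.62 lay between the genes.

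PCNA, the sliding clamp, shares its promoter region with CDS2, an enzyme of phospholipid synthesis, whose start is 386 bp away on the opposite strand. A peak of 1545 bp, the widest of the start peaks, spanned both starts on chromosome 20 from 5126510 to 5128054. It had a fold of 15.3, a −log10 q of 35.6 and a pileup of 36 fragments (25.2 to 49.8) over a control level of 1.41. As at POLE, the summit was nearer to the neighbour, 125 bp past the start of CDS2 and 511 bp upstream of PCNA. A peak with a fold of 9.59 and a pileup of 28 fragments (18.6 to 40.5) lay 554 bp past an inner listed start of PCNA. Its summit was nearer to the listed start of the antisense gene PCNA-AS1, 182 bp upstream of it. The strongest peak in the neighbourhood, with a fold of 37.8 and a pileup of 97 fragments (78.7 to 118), lay 49 bp from an end of TMEM230. Of all 10349 start peaks, 11.3% were within 1 kb of the starts of at least 2 protein-coding genes, and among the peaks that hold a start of the 10 genes these were the 2 at POLE and PCNA.

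Set side by side by pileup, the start peaks formed a gradual series from PRIM2 through POLA1, POLA2, POLE, PCNA, POLD3, POLD2 and POLE2 to PRIM1, with 70, 56, 44, 38, 36, 23, 22, 18 and 16 fragments. No neighbours in this order had pileup intervals that were apart. The interval of PRIM2 was above those of 6 genes (POLE, PCNA, POLD3, POLD2, POLE2 and PRIM1) and that of POLA1 above those of 4 (POLD3, POLD2, POLE2 and PRIM1). The intervals of the 5 from PCNA to PRIM1 all overlapped. Overlap of intervals is not a test of a difference, and pairs of pileups were not tested. By fold the order was POLA1, POLE, PRIM2, PCNA, POLA2, POLD3, POLE2, PRIM1 and POLD2, with POLE and PCNA, whose control levels were the lowest, moved up. Polymerase α-primase and polymerase ε each held genes from the upper and the lower part of both orders.

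**Figure D3:**
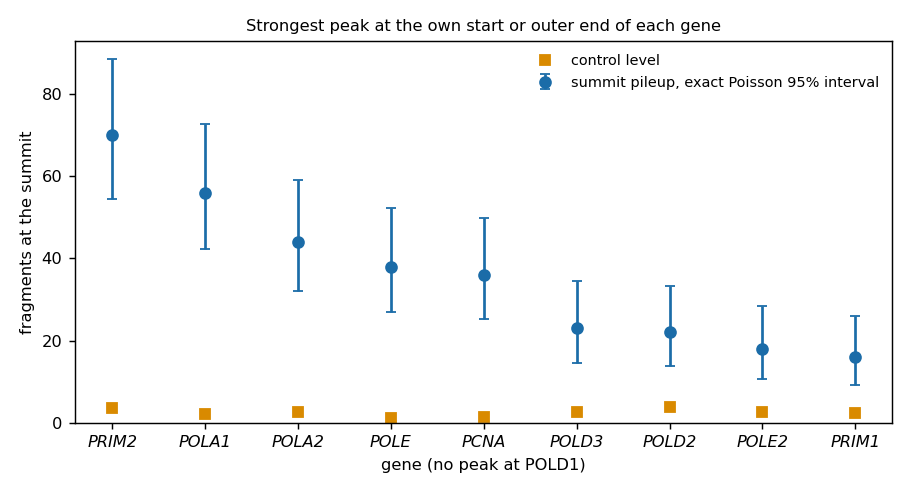
Strongest peak at the own start or outer end of each gene, ordered by the number of fragments at the summit (blue circles, with exact Poisson 95% confidence intervals), beside the control level there (orange squares). Pileups run from 70 fragments at PRIM2 to 16 at PRIM1 and the intervals of neighbours overlap, while control levels stay between 1.28 and 3.79.

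**Figure D4:**
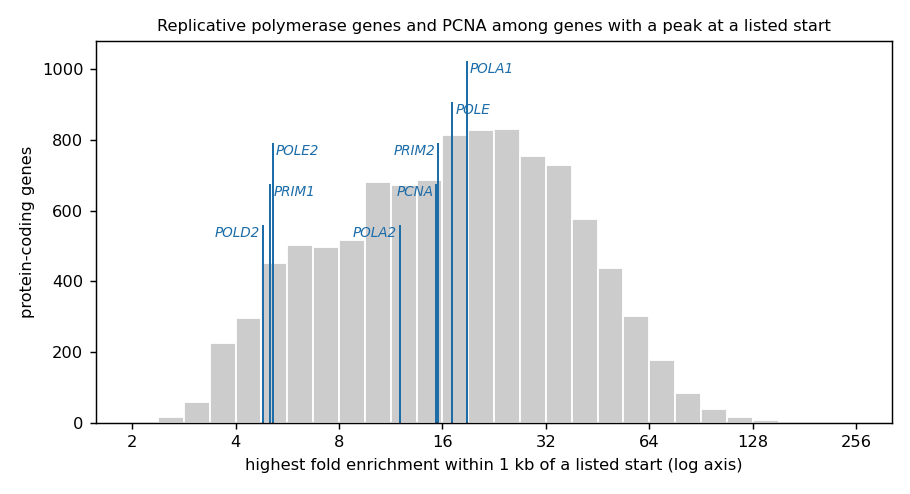
Number of protein-coding genes by the highest fold enrichment within 1 kb of a listed start (log axis), with blue lines for the 8 genes described here that have such a peak. PRIM1, POLE2 and POLD2 lie near 5 on the low side of the distribution, and the other 5 lie between 12.1 and 18.8, of which only POLA1 exceeds the median of all genes, 17.8.

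The rest of the fork machinery was looked at through fixed lists. Of the small subunits that complete polymerases δ and ε, POLD4, POLE3 and POLE4, all 3 had an end peak, that is one within 1 kb of an outer end, with a highest fold of 21.8, 40.4 and 5.95. Beside them stand the catalytic subunits, with no peak for POLD1 and 17.1 for POLE. Among 9 genes of clamp loaders, which open PCNA and place it on DNA or take it off, 9 had such a peak, from 3.31 at RFC5 and 3.83 at RFC3 to 64.8 at CHTF8 and 73.5 at DSCC1. Of 6 genes for the maturation of Okazaki fragments, 5 had one, with a fold of 13.6 for the flap nuclease FEN1, 3.40 for the ligase LIG1 and 23.2 for DNA2, and RNASEH2A had none. All 4 fork-protection genes had one, from 13.8 at TIPIN to 57.1 at CLSPN. Of the 3 genes of RPA, the single-strand binding protein, only RPA2 had one, with a fold of 20.2. Over these 5 lists 22 of 25 genes had an end peak (88.0%, with a Wilson interval of 70.04% to 95.8%), against the background of 62.1%, and 15 of 25 had one with a fold over 10, against 45.2%.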

How the data were processed

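The measurement is 1 list of ChIP-seq peaks, from an anti-Flag immunoprecipitate of A549-shETV4 cells that expressed Flag-ETV4. The input was mapped from the labels and enters only through the values of the peak caller. The submitters' processing notes name Bowtie2 2.4.1, SAMtools, MACS2 2.2.7.1 and deepTools 3.5.0 and the builds hg38 and GRCh38, with no roles or options, and the treatment of duplicate reads is not given in the sources used here. The authors deposited a peak list that gives each interval its fold enrichment (a ratio), −log10 p-value and −log10 q-value at the summit. Over the 54389 peaks the fold ran from 2.34 to 327 with a median of 9.63, and the lowest −log10 q was 1.30. Positions are 1-based.

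Pileup and control level were solved from fold and −log10 p with the Poisson distribution and a pseudocount of 1. All pileups were whole to within 0.01 (100% of peaks), with a median of 26 fragments, and a test on 20000 simulated peaks recovered 100%. The control level of 29.0% of peaks was at its minimum, 1.28, which limits how low a control can be seen. Genes are RefSeq, GRCh38.p14, on chromosomes 1 to 22, X and Y. Outer ends pool all transcripts of a gene. Starts, strands and sequences came from the RefSeq promoter table (windows found for 9 of 10 genes, 12 windows). Exons and introns were not used here. Shares have Wilson and pileups exact Poisson 95% confidence intervals. Fold intervals are the pileup interval over a fixed control level.

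The genes and lists were chosen with earlier results of these data known. Named besides the 10 genes are the genes with an end within 1 kb of an assigned peak or nearest to the strongest peak of a gene, and for each list the gene with the highest fold and those without a peak. AEBP1 and several list genes were named after their values were seen. Alternatives covered thresholds on fold and q, windows, summits in place of intervals, listed starts, rankings and motif forms, and bands of GC content and of CG number were added after the data were seen. Scripts ran in Python 3.11.15 with scipy 1.17.1, pandas 2.3.3, numpy 2.4.6 and, for figures, matplotlib 3.10.9.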

Additional observations from a re-analysis of the deposited data

How the results depend on the processing

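Of 36 alternatives, 21 left the value within the limit set for it (1.5 times for counts, the counting interval for shares) and 15 moved it. Requiring a fold over 10 lowered the genes with a peak within 1 kb of an outer end from 9 to 4 and the assigned peaks from 31 to 16, and leaving out the 10 kb flank lowered the assigned peaks to 18. The 4 genes were POLA1, POLA2, POLE and PCNA. With listed starts PRIM2 joined them, making 5. The motif count depended on its form, with GGAA in 9 genes, CCGGAA in 5 and CCGGAAGT in 1. The difference in the share of windows with CCGGAA, 20.0 percentage points over all windows, was 22.3, 20.9, 17.9 and 11.1 points in bands of GC content rising from 50% to 75%, and 5.33, 11.6, 16.2, 14.3 and 6.28 points in bands of a rising number of CG. Below 50% GC it was 11.2 and from 75% up 7.37 points. The strongest peak of each gene was the same peak for 10 of 10 genes when ranked by −log10 q or by pileup. No paired analysis was possible because there is 1 immunoprecipitate. At a median of 26 fragments per summit, start peaks of 16 to 23 fragments cannot be ordered among themselves, and a gene without a peak may have signal below the threshold of the list.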

Other observations

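DNA polymerases that do not drive the fork formed a further list. Of 15 genes for repair, translesion, mitochondrial and other polymerases and their partners, a peak lay within 1 kb of an outer end for 13 (86.7%, with a Wilson interval of 62.1% to 96.3%), against 62.1% of all protein-coding genes. With no interval computed, 11 (73.3%) had one with a fold over 10, against 45.2%. For the replicative genes the latter count was 4 of 10 at outer ends and 5 of 9 at listed starts. The median of the highest fold among the 13 was 30.1, and over all protein-coding genes with such a peak it was 17.6. For the replicative genes it was 7.25 at outer ends, where PRIM2 is represented by the peak next to RAB23. At listed starts it was 13.7 for the replicative genes and 17.8 over all protein-coding genes, and it was not computed for the 15. The highest of the 15 were PRIMPOL, a primase-polymerase that restarts stalled forks, with 69.8, the base excision repair polymerase POLB with 68.8, and the translesion polymerases REV1 with 54.2, POLI with 42.5 and POLK with 38.6. The catalytic subunit REV3L of polymerase ζ had 30.1. The mitochondrial polymerase genes POLG and POLG2 had 14.2 and 21.7. The lowest of those with an end peak were POLN with 4.46 and DNTT with 6.81, followed by POLH with 11.1 and POLQ with 13.7. POLL had no peak within 1 kb of an end, and MAD2L2 had none at an outer end but one with a fold of 18.7 at a listed start. The lists were not tested against each other.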
